A study of Mus musculus with 28 samples.

Results

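The amphiphysin genes Bin1 (ENSMUSG00000024381), Amph (ENSMUSG00000021314), Bin2 (ENSMUSG00000098112) and Bin3 (ENSMUSG00000022089) and the dynamin genes Dnm2 (ENSMUSG00000033335), Dnm1 (ENSMUSG00000026825), Dnm3 (ENSMUSG00000040265) and Dnm1l (ENSMUSG00000022789) were followed in tibialis anterior (TA) muscle of 28 mice. They are the genes mutated in the 2 mouse models and their paralogs, were chosen by name, and make up 8 of the 55359 gene identifiers counted in the Bin1 cohort and of the 55416 in the Dnm2 cohort. The comparisons ask whether paralogs of an affected gene are expressed at another level in disease and under tamoxifen, the treatment of both models. RNA was sequenced from 7 groups of 4 mice, all 8 weeks old and of the C57BL/6N strain. The Bin1 cohort had 12 mice, which were WT on placebo, Bin1 mck-/- on placebo (disease) and Bin1 mck-/- on a diet with tamoxifen (disease treated). In Bin1 mck-/- mice, Bin1 is deleted with a recombinase driven by the muscle creatine kinase promoter, so that other cell types of the muscle keep the gene. The Dnm2 cohort had 16 mice, which were WT on placebo, WT on tamoxifen (WT treated), Dnm2 S619L/+ on placebo (disease) and Dnm2 S619L/+ on tamoxifen (disease treated). These mice carry 1 copy of the S619L allele in every cell, and counts per gene do not separate that allele from the normal one. The Bin1 cohort holds no WT treated mice.

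Amphiphysins carry a BAR domain, a curved helical module that binds and bends membranes, and Bin1 in muscle shapes the T-tubules, the invaginations of the plasma membrane that carry excitation into the fiber. Dynamins are large GTPases that assemble around the necks of membrane buds and cut them. Dnm2 is expressed in most tissues, Dnm1 and Dnm3 are best known from neurons, and Dnm1l (also called Drp1) divides mitochondria. Amph is the amphiphysin of nerve terminals, Bin2 is mainly expressed by blood cells, and Bin3 is a small, widely expressed member that consists of little more than its BAR domain. Mutations of BIN1 and DNM2 cause centronuclear myopathy in humans.

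The 3 classical dynamin genes share a feature on the opposite strand. In the reference annotation, an intron of each of Dnm1, Dnm2 and Dnm3 holds a microRNA gene of the miR-199 family that is transcribed against the dynamin gene, and an intron of Dnm3 also holds Mir214. Both microRNA genes of the Dnm3 locus lie in exons of the noncoding RNA Dnm3os (ENSMUSG00000078190), whose level is given beside Dnm3 below. Their mature sequences from RefSeq (build GRCm38.p6) are shown because they are what these loci have in common, with bases 2 to 8 (the seed) in capitals.
miR-199a-5p, chr1:162217844-162217866 (+) in Dnm3os and chr9:21496537-21496559 (-) against Dnm2: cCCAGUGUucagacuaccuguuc
miR-199a-3p, chr1:162217883-162217904 (+) in Dnm3os and chr9:21496498-21496519 (-) against Dnm2: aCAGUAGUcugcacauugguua
miR-199b-3p, chr2:32318524-32318545 (+) against Dnm1: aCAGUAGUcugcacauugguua
miR-214-3p, chr1:162223438-162223459 (+) in Dnm3os: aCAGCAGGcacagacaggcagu
The miR-199a-3p and miR-199b-3p sequences are the same in full, so that they share the seed CAGUAGU, and miR-214-3p has another seed. MicroRNAs themselves were not measured in these libraries of polyadenylated RNA.

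The count tables hold 24671835 to 35136327 reads on genes per mouse for the Bin1 cohort and 15586333 to 109710886 for the Dnm2 cohort. Levels are CPM, read counts scaled to library size with edgeR's TMM factors, which correct for a few abundant genes taking many of the reads. Fold changes and adjusted p-values are from edgeR's quasi-likelihood test over all 14841 or 15439 genes tested in a cohort, and an adjusted p under 0.05 is called a change. All 8 genes passed the filter on low counts in each cohort. The marker genes of skeletal muscle fibers (Ckm, Acta1, Myh4 and others) summed to 85772 CPM or more in every mouse, the level of the tissue the labels name. Some libraries stood apart in ways that touch the results. A set of 8 osteoblast and osteocyte markers summed to 14.5 to 60.5 CPM in the untreated mice, and to 838 to 2399 CPM in the WT treated mice. In disease treated mice of the Dnm2 cohort the sum was 506 CPM in mouse 1, 1082 in mouse 2, 1547 in mouse 3 and 63.8 in mouse 4. In the Bin1 cohort it was 634 CPM in disease treated mouse 2 and 18.6 to 26.2 in the other disease treated mice. Xist, the RNA of the inactive X chromosome, was under 1 CPM in 2 WT, 2 WT treated and 2 disease mice of the Dnm2 cohort and at least 70.8 in the other 22 mice. Fits of that cohort without these mice keep 2 mice in each of these groups and all 4 disease treated mice. Such fits thus rest on fewer mice. Sex is not among the labels of these mice. Neuron markers, which bear on Amph, Dnm1 and Dnm3, summed to 1.43 to 8.76 CPM in all mice, and only 3 of 7 passed the filter on low counts.

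Per kb of exon, the scale on which genes were compared with each other, Bin1 was by far the most abundant of these genes in WT muscle (131 CPM per kb in the Bin1 cohort and 121 in the Dnm2 cohort). Dnm2 followed with 13.01 and 11.8, and Dnm1l with 12.4 and 21.9. Dnm2 and Dnm1l overlapped between mice in the Bin1 cohort, and Dnm1l was above Dnm2 in every WT mouse of the Dnm2 cohort, in libraries that were made with another protocol. Bin3 had 2.67 and 2.51 CPM per kb and Dnm1 had 1.49 and 1.98, with overlap between mice of the Dnm2 cohort. Amph (0.386 and 0.344), Dnm3 (0.217 and 0.315) and Bin2 (0.155 and 0.15) were lowest, and neighbors among these 3 overlapped between mice in at least 1 cohort. The length of Dnm3 is the union of its annotated exons, 24.45 kb against 2.19 to 5.33 kb for the others, which lowers its value on this scale.

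**Figure D1:**
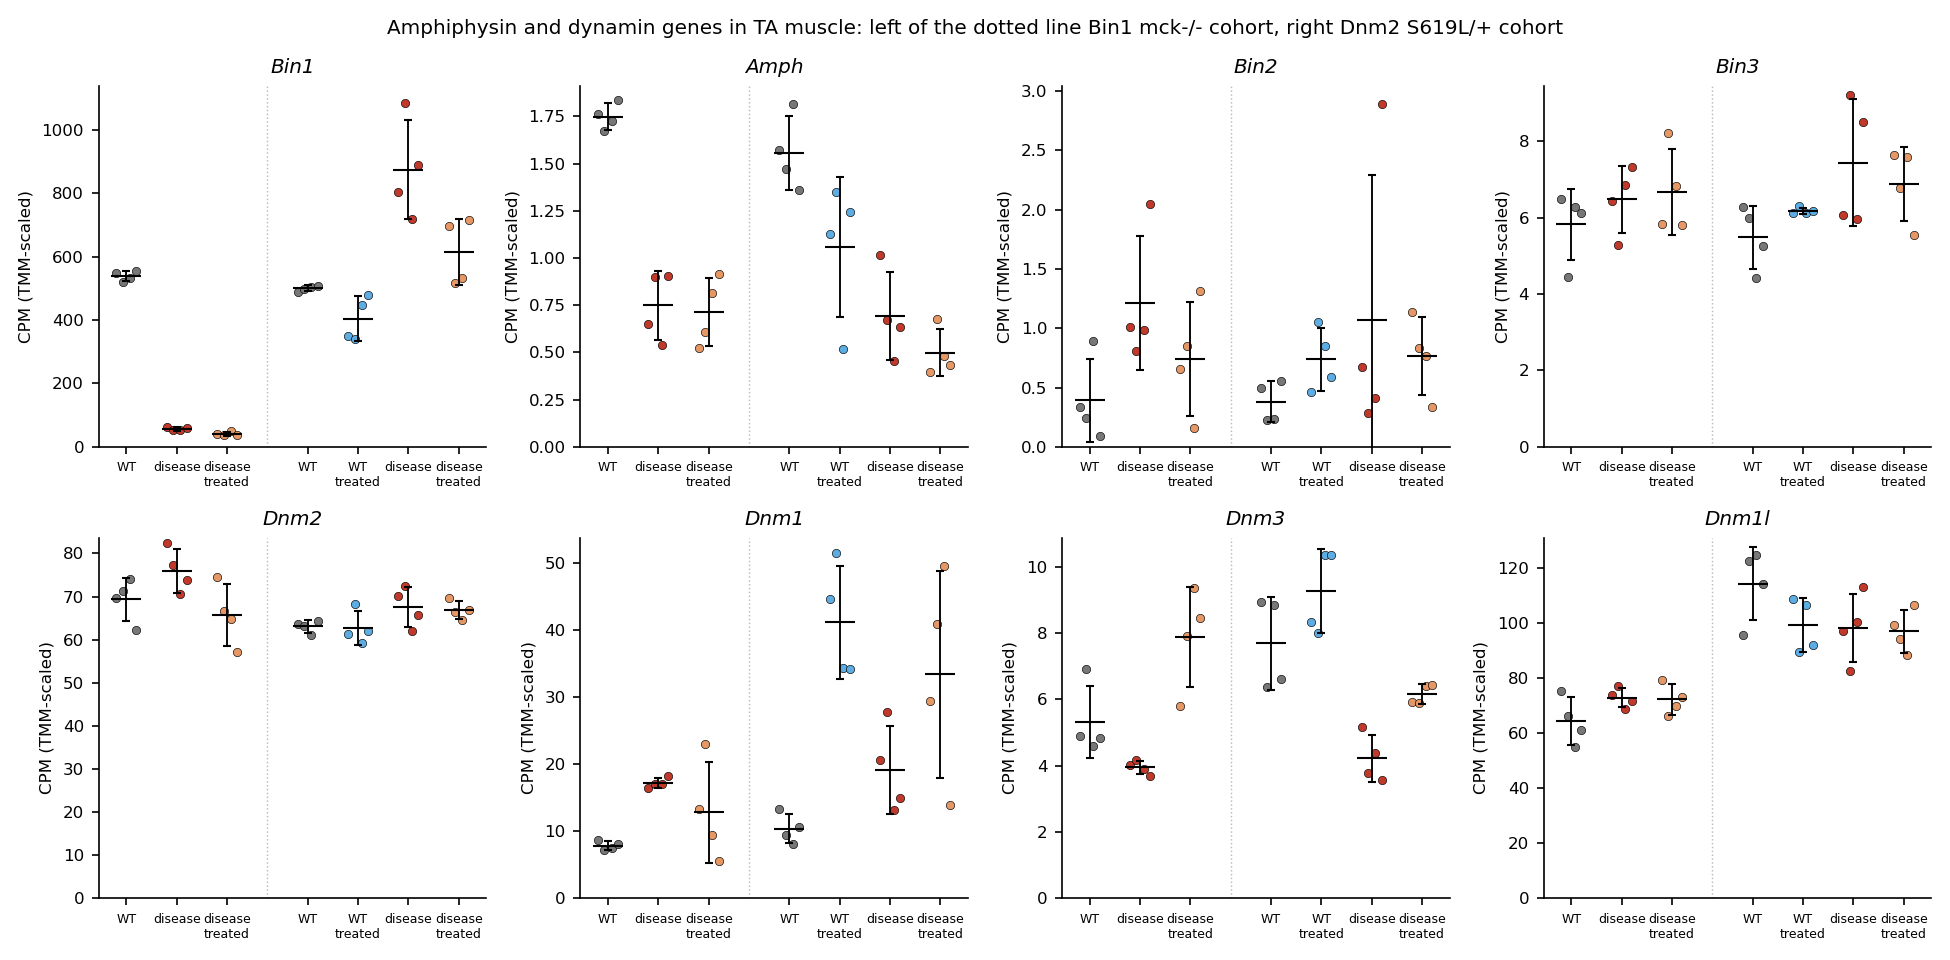
CPM of the 8 genes in each mouse (points), by group, with the mean and SD of 4 mice (black bars; the lower bar of Bin2 in disease mice of the Dnm2 cohort is cut at 0). Bin1 drops to 36.1 to 62.1 CPM in the disease groups of the Bin1 cohort and lies at 720 to 1086 CPM in disease mice of the Dnm2 cohort. Dnm2 stays between 57.2 and 82.4 CPM in all 28 mice. Dnm1 is highest in mice that received tamoxifen in the Dnm2 cohort, except disease treated mouse 4 (13.9 CPM).

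Bin1, the targeted gene of the Bin1 cohort, was at 549, 521, 533 and 556 CPM in the WT mice, at 62.1, 51.6, 52.2 and 58.8 in the disease mice, and at 41.3, 36.1, 49.5 and 36.9 in the disease treated mice. The ranges of the 3 groups did not overlap, and the fall in disease was 3.26 on the log2 scale (SE 0.13, edgeR adjusted p = 7.10e-10). Between 947 and 2207 reads per mouse remained in the disease groups, that is 10.4% of the WT level in disease and 7.58% in disease treated mice, and whether they come from fibers or from other cells was not tested. In bulk samples, fewer cells of a type and less RNA per cell cannot be told apart. The fall under tamoxifen was small (log2 fold change -0.46, 95% interval -0.71 to -0.21, edgeR adjusted p = 0.0466), and it was lost in 11 of 12 fits in which 1 mouse was left out.

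Bin1 rose in disease in the Dnm2 cohort, in which the gene is intact. It was at 487, 499, 505 and 508 CPM in WT mice and at 804, 1086, 720 and 888 CPM in disease mice, so that the groups did not overlap. The rise was 1.75-fold (log2 fold change 0.81 with an SE of 0.15, edgeR adjusted p = 0.00176) and was called in each of the 16 fits without a mouse (adjusted p at most 0.00757). Markers of other cells and states moved in the same comparison. All 5 markers of denervated fibers rose (median log2 fold change 2.83, summed level 34.9 to 42.6 CPM in WT and 80.4 to 217 CPM in disease), 3 of 5 endothelial markers fell (median -1.06, 317 to 636 and 138 to 427 CPM) and 2 of 4 satellite cell markers fell (median -1.36, 11.9 to 21.7 and 8.07 to 36.2 CPM). Their part in the values of Bin1, Amph and Dnm3 in this comparison was not tested. Under tamoxifen, the disease treated mice had 695, 518, 533 and 714 CPM, all below the disease mice and above the WT mice. The fall from disease was 0.51 on the log2 scale (SE 0.15, adjusted p = 0.0479), and it did not pass the test in 12 of the 16 fits without a mouse, nor in 7 other settings (adjusted p 0.0538 to 0.20). WT treated mice had 351, 339, 447 and 480 CPM, all below the untreated WT mice, and this difference did not pass the test (log2 fold change -0.31, SE 0.15, edgeR adjusted p = 0.137). Among treated mice, disease mice were above WT mice (log2 fold change 0.61, edgeR adjusted p = 0.0417), a call that 10 of the 16 fits without a mouse did not make.

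Amph was the amphiphysin with the clearest difference besides Bin1, and it was lower, not higher, in disease. In the Bin1 cohort it was at 1.76, 1.67, 1.73 and 1.84 CPM in WT mice, at 0.651, 0.901, 0.538 and 0.906 in disease mice, and at 0.523, 0.607, 0.815 and 0.914 in disease treated mice. Each disease mouse was below each WT mouse. These levels rest on 12 to 63 reads per mouse. The difference missed the threshold (log2 fold change -1.16 with an SE of 0.32, edgeR adjusted p = 0.0538), and DESeq2 called it (adjusted p = 0.00415). In Dnm2 S619L/+ mice and their controls, Amph was at 1.57, 1.47, 1.82 and 1.36 CPM in WT, at 1.01, 0.672, 0.453 and 0.633 in disease, and at 0.399, 0.678, 0.481 and 0.432 in disease treated mice. It fell in disease (log2 fold change -1.07 with an SE of 0.30, edgeR adjusted p = 0.0161) and had its lowest mean in disease treated mice (-1.54 against WT, SE 0.31, adjusted p = 0.00161). Disease treated and disease mice overlapped, and the difference between them was not called (-0.47, edgeR adjusted p = 0.334). The call for disease against WT was lost without the 6 mice with little Xist (adjusted p = 0.212) and on total counts (adjusted p = 0.0501). WT treated mice, at 1.13, 1.35, 0.518 and 1.24 CPM, differed from WT mice by a log2 fold change of -0.50, which did not pass the test (adjusted p = 0.191).

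Bin2 was close to the limit of detection, with 3 to 77 reads per mouse. In the Bin1 cohort the mean went from 0.391 ± 0.351 CPM (SD, n = 4 here and below) for WT to 1.21 ± 0.567 for disease, with 0.743 ± 0.481 for disease treated mice, and the same groups of the Dnm2 cohort had 0.380 ± 0.173, 1.07 ± 1.23 and 0.768 ± 0.328. None of the differences passed the test (adjusted p = 0.169 and 0.113 for disease against WT with edgeR). Markers of leukocytes and macrophages were higher in the same disease groups. Of 10 such markers, 6 rose in disease in the Bin1 cohort (median log2 fold change 1.82) and 7 in the Dnm2 cohort (median 1.44). In WT treated mice 7 of the 10 rose as well (median 1.53). Bin2 was at 0.737 ± 0.263 CPM there (log2 fold change 0.77 against WT, edgeR adjusted p = 0.328). The marker sum was highest in disease mouse 4 of each cohort (269 and 396 CPM), which also had the most Bin2 (2.05 and 2.89 CPM). The part of these cells in the Bin2 values was not tested. Bin3 was at 4.43 to 9.21 CPM in all mice, with overlapping groups, and passed the test in none of the 8 comparisons within a cohort. Its widest margin was a log2 fold change of 0.42 in disease mice of the Dnm2 cohort (95% interval 0.07 to 0.77, edgeR adjusted p = 0.0733).

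On the per-kb scale, the loss of Bin1 was not matched by the other amphiphysins. Bin1 was lower by 117 CPM per kb in disease mice of the Bin1 cohort (131 to 13.6), while the sum of Amph, Bin2 and Bin3 was 3.21 ± 0.495 CPM per kb (SD, n = 4) for WT, 3.61 ± 0.588 for disease and 3.50 ± 0.507 for disease treated mice. Bin3 made up most of that sum in every group. Bin1 accounted for 97.6% of the reads per kb of the 4 genes in WT mice, for 79.1% in disease mice (76.6% to 81.2% in the single mice) and for 73.7% in disease treated mice (67.4% to 78.1%). The share thus remained above that of the 3 others together after deletion. Sums were not tested.

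**Figure D2:**
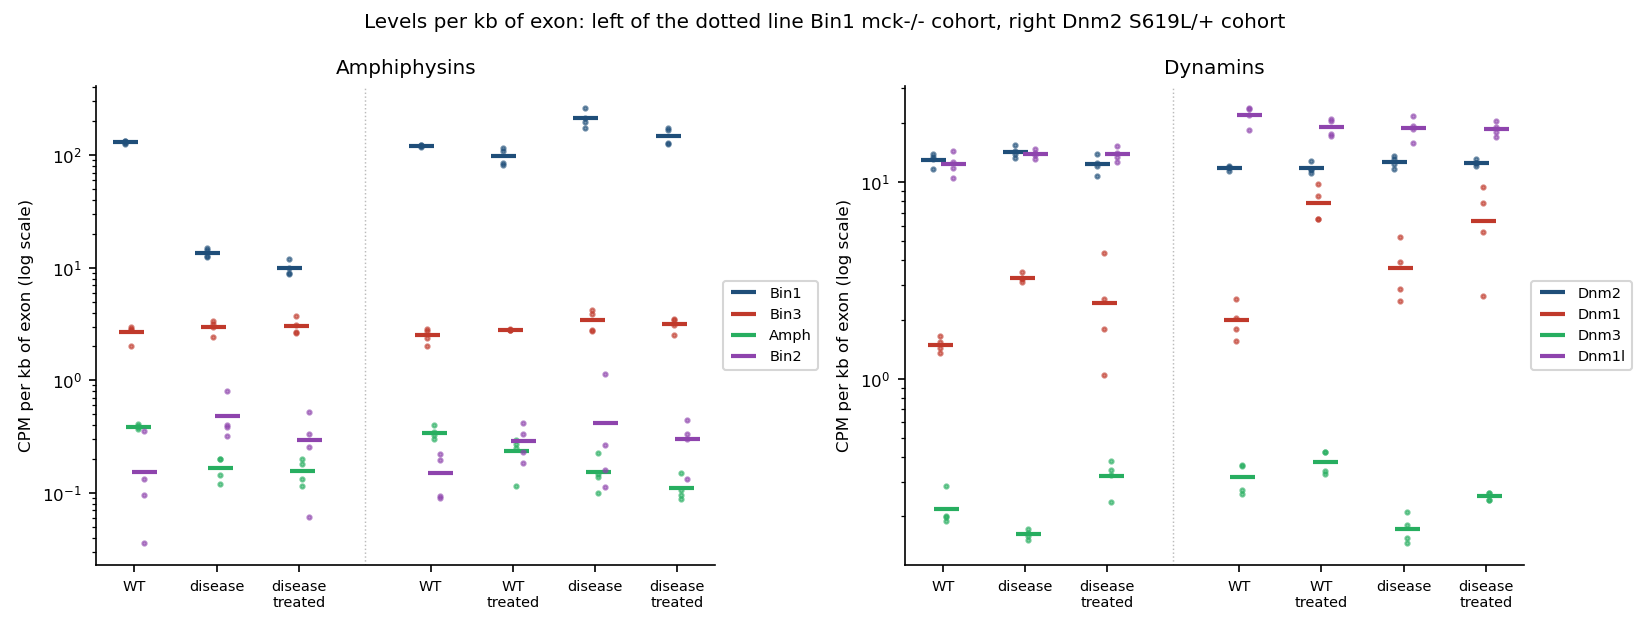
CPM per kb of exon on a log scale for the amphiphysins (left) and the dynamins (right), with dots for mice and lines for group means. Bin1 falls from 131 to 13.6 and 9.94 CPM per kb in the Bin1 cohort while Bin3 stays between 2.02 and 4.21 CPM per kb in all mice, and Dnm1 comes closest to Dnm2 in the WT treated mice.

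Dnm2 itself passed the test in none of the 8 comparisons within a cohort. It lay at 69.7, 71.4, 74.0 and 62.3 CPM in WT, at 82.4, 77.3, 70.5 and 73.9 in disease, and at 74.7, 66.5, 64.7 and 57.2 in disease treated mice of the Bin1 cohort. The 3 groups overlapped. The interval of the log2 fold change ran from -0.08 to 0.35 for disease against WT and from -0.43 to 0.01 for disease treated against disease mice (edgeR adjusted p = 0.507 and 0.259). Dnm2 cohort groups ran from 59.3 to 72.4 CPM, and the interval was -0.16 to 0.14 for tamoxifen in WT and -0.17 to 0.14 for tamoxifen in disease mice (adjusted p = 0.937 and 0.929). These values depend on scaling. With total counts in place of TMM factors, the median over all genes shifted by 0.274 for WT treated against WT mice and by 0.261 for disease against WT mice, and Dnm2 was then called higher (log2 fold change 0.27 and 0.37, adjusted p = 0.0311 and 0.00592), where the median over all genes was 0.238 and 0.285.

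Dnm1l, which acts on mitochondria and not on the plasma membrane, was at 54.8 to 79.4 CPM in the Bin1 cohort and at 82.6 to 125 CPM in the Dnm2 cohort. Its groups overlapped in each cohort and it passed the test in none of the 8 comparisons. Its intervals stayed within -0.47 and 0.40 on the log2 scale. The point estimates for disease against WT were 0.18 in the Bin1 cohort and -0.22 in the Dnm2 cohort. A fit of all 28 mice did not call the difference of -0.40 between them (SE 0.16, edgeR adjusted p = 0.249).

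Dnm1 was the dynamin with the largest changes. It lay in the Dnm2 cohort at 13.4, 9.45, 8.14 and 10.7 CPM in WT mice and at 44.6, 51.5, 34.3 and 34.2 CPM in WT treated mice, with a wide gap between the groups. This was a 3.90-fold rise (95% interval 2.40 to 6.34, edgeR adjusted p = 0.000806), which was called in every alternative run and in each of the 16 fits without a mouse (log2 fold change 1.84 to 2.11). Disease mice had 20.6, 27.8, 13.1 and 15 CPM, of which mouse 3 overlapped with WT, and the difference missed the threshold (log2 fold change 0.86, edgeR adjusted p = 0.0677; DESeq2 adjusted p = 0.033). Disease treated mice had 29.4, 41.0 and 49.5 CPM in mice 1 to 3 and 13.9 CPM in mouse 4, which lay among the disease mice. Against WT mice, disease treated mice were higher (log2 fold change 1.66, SE 0.33, edgeR adjusted p = 0.00211). Without the 6 mice with little Xist this value was 1.5 and not called (adjusted p = 0.0755). The difference from disease mice was not called (0.80, SE 0.32, edgeR adjusted p = 0.13), and it passed without mouse 4 (1.06, adjusted p = 0.0102).

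In the Bin1 cohort, Dnm1 was at 8.64, 7.13, 7.49 and 8.04 CPM in WT mice and at 16.4, 17.0, 17.0 and 18.3 CPM in disease mice. The groups did not overlap, and the difference missed the threshold when all 12 mice were fitted (log2 fold change 1.13, 95% interval 0.45 to 1.81, edgeR adjusted p = 0.0704). DESeq2 (adjusted p = 0.00554) and the fit of these 2 groups alone (adjusted p = 0.000161) called it. Disease treated mice were spread from 5.52 to 23.0 CPM, with 13.3, 23.0, 9.43 and 5.52 in mice 1 to 4. Tamoxifen made no difference that passed the test (log2 fold change -0.42, edgeR adjusted p = 0.469). Without mouse 2 the 3 other treated mice were lower than disease mice (-0.87, adjusted p = 0.0248).

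Among mice that received tamoxifen, Dnm1 was high and low largely in the same mice as the bone markers described above and markers of fibroblasts. In the Dnm2 cohort this also held for markers of leukocytes and macrophages. The treated mice that stood apart within their group in Dnm1 also did so in the bone markers. Disease treated mouse 2 of the Bin1 cohort had both the highest marker sum (634 CPM) and the highest Dnm1 of its group. Disease treated mouse 4 of the Dnm2 cohort had both the lowest marker sum (63.8 CPM) and the lowest Dnm1 of its group. The untreated disease mice of the Dnm2 cohort went the other way. Of these, mouse 2 had the most Dnm1 and the lowest bone marker sum (14.5 CPM). Mouse 3 had the least Dnm1 and the highest bone marker sum (26.6 CPM). In WT treated mice of the Dnm2 cohort, 7 of 8 osteoblast and osteocyte markers rose (median log2 fold change 6.0 over the list and -0.04 over all genes tested), among them the bone matrix gene Ibsp at 172 to 652 CPM against at most 0.821 in WT and the osteoblast transcription factor gene Sp7 at 14.5 to 30.0 CPM against at most 0.179. In disease mice of the Dnm2 cohort none of the 8 rose and Alpl fell by 1.56 on the log2 scale (edgeR adjusted p = 0.015). The sum of the 8 was 14.5 to 26.6 CPM in these disease mice, against 31.5 to 60.5 in WT. For disease in the Bin1 cohort 4 of the 8 were tested and none was called (median log2 fold change 0.82). The sum of all 8 was 29.1 to 40.8 CPM in disease mice of that cohort, against 39.4 to 48.2 in WT. Sp7 was at most 0.0533 CPM, while Dnm1 was above every WT mouse of the cohort in 7 of the 8 disease mice. Markers of fibroblasts rose in WT treated mice as well (5 of 5, median log2 fold change 3.59), with a sum of 9082 to 17744 CPM. Over disease treated mice 1 to 4 this sum was 1632, 5782, 981 and 259 CPM in the Bin1 cohort and 6647, 11047, 13671 and 1981 CPM in the Dnm2 cohort, the same order of mice as for Dnm1 in each cohort. The sum in disease mice was 1649 to 4095 CPM in the Bin1 cohort and 1589 to 2252 in the Dnm2 cohort, against 771 to 985 and 891 to 1214 in WT, so that it was above WT in every disease mouse, as Dnm1 was in 7 of 8, with none of the 5 markers called. Markers of leukocytes and macrophages rose in WT treated mice too (7 of 10, median log2 fold change 1.53). Over disease treated mice 1 to 4 their sum was 204, 239, 253 and 97.5 CPM in the Dnm2 cohort, in the order of Dnm1. In the Bin1 cohort it was 170.0, 170.6, 54.0 and 71.1 CPM, with mice 3 and 4 in the other order. Neuron markers moved in WT treated mice as well. Tubb3 and Prph rose there (log2 fold change 1.59 and 2.23, edgeR adjusted p = 0.012 and 0.0188), at 0.753 to 1.41 and 1.98 to 3.30 CPM. Stmn2, the other tested neuron marker, had -0.28 in WT treated mice (edgeR adjusted p = 0.547). Prph also rose in disease in the Dnm2 cohort (2.14, edgeR adjusted p = 0.0285). Stmn2 and Tubb3 had -0.63 and -0.06 in that comparison and were not called (adjusted p = 0.178 and 0.967). The genes most like Dnm1 over the 28 mice, each cohort centered on its mean, were Rcn3, Mrc2 and Tmem119 (Pearson's r of log2 CPM 0.969, 0.964 and 0.963 among 14572 genes), a description of mice that share groups and libraries. What part these cells have in the Dnm1 values was not tested.

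**Figure D3:**
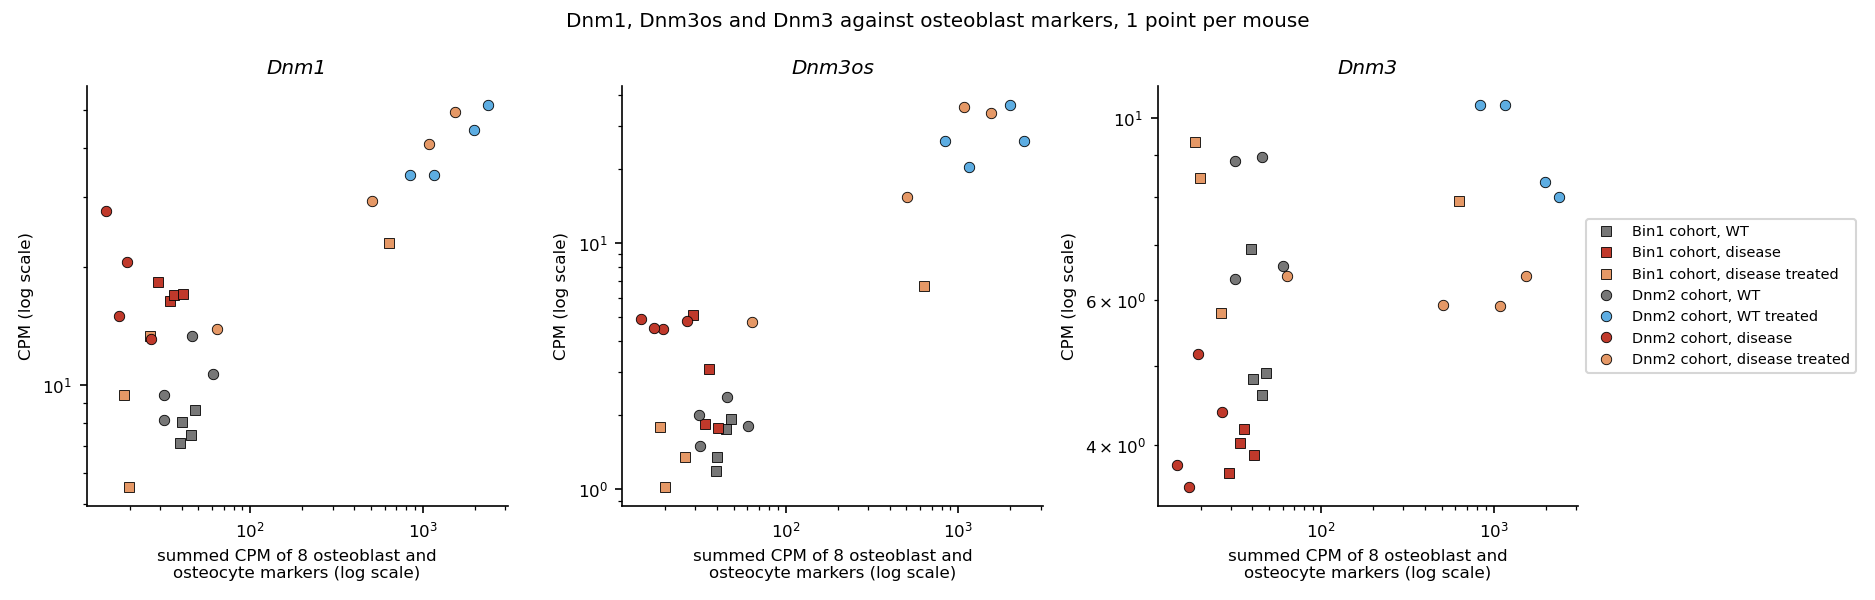
CPM of Dnm1, Dnm3os and Dnm3 in each mouse against the summed CPM of 8 osteoblast and osteocyte markers in that mouse (log axes; squares for the Bin1 cohort, circles for the Dnm2 cohort). The mice with a marker sum of 506 CPM or more have 23.0 to 51.5 CPM of Dnm1 and 6.70 to 36.3 CPM of Dnm3os, while Dnm3 spans 5.90 to 10.4 CPM in them and reaches 9.35 CPM in a mouse with a sum of 18.6 CPM.

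Among mice that received tamoxifen, the noncoding RNA Dnm3os, the precursor of miR-199a and miR-214, was high largely in the same mice as Dnm1. Its level in the Dnm2 cohort was 2.37, 2.01, 1.5 and 1.81 CPM in WT and 36.3, 26.1, 25.8 and 20.3 CPM in WT treated mice, a 13.4-fold rise (log2 fold change 3.74, SE 0.46, edgeR adjusted p = 0.000233). Disease mice had 4.46 to 4.90 CPM, above each WT mouse, and this difference missed the threshold (log2 fold change 1.22, adjusted p = 0.0601). DESeq2 (adjusted p = 0.0148), edgeR with only the groups compared (adjusted p = 0.00247) and total counts (adjusted p = 0.0255) called it. Disease treated mice had 15.3, 35.8, 33.8 and 4.78 CPM, with mouse 4 again at the level of the disease mice, and Dnm3os rose there as a group against disease mice (2.25, SE 0.43, edgeR adjusted p = 0.0076). This call did not hold when the 6 mice with little Xist were left out (adjusted p = 0.164) or with only the groups compared (adjusted p = 0.0898). No comparison of the Bin1 cohort was called, and disease treated mouse 2 had 6.70 CPM against 1.02 to 1.78 in the other treated mice. Disease mice 1 and 3 of that cohort had 1.83 and 1.77 CPM, within the WT range of 1.18 to 1.93. Mice 2 and 4 had 3.09 and 5.11 CPM, while Dnm1 was above WT in each of these disease mice. The part of bone cells, fibroblasts and leukocytes, whose marker sums are given beside Dnm1, was not tested here either. Dnm1 and Dnm3os both rose in WT treated mice of the Dnm2 cohort, which were given tamoxifen, a ligand of the estrogen receptor, and for that their promoters from RefSeq (300 bases around the annotated start, build GRCm38.p6) are shown, with matches to any motif searched in capitals.
Dnm1, chr2:32353280-32353579 (-): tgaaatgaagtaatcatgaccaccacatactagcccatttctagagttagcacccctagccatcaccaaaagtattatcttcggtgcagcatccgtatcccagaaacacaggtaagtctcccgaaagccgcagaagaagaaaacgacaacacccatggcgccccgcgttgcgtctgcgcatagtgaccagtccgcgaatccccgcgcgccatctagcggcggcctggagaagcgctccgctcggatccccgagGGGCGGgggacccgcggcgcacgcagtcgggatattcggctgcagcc
Dnm3os, chr1:162217373-162217672 (+): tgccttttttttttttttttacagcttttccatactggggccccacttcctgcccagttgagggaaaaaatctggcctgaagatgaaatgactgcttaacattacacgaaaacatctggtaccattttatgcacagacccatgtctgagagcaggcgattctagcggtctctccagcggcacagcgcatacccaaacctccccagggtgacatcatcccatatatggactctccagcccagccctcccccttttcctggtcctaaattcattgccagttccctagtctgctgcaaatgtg
The motifs, searched on both strands, were the estrogen receptor half-site AGGTCA, the palindromic estrogen response element (whose arms can overlap a half-site), the E-box CAGCTG, the TATA box TATAAA and the GC box GGGCGG. Only the GC box matched, once in Dnm1, and nothing matched in Dnm3os. The half-site occurs in 16.3% and the full element in 0.07% of 32851 promoters of the same length, the E-box in 16.3%, the TATA box in 13.6% and the GC box in 35.7%. Neither estrogen receptor motif was in the promoters of Dnm2, Dnm3, Amph and Dnm1l either, which says only that these letters are not in these windows.

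Dnm3 rose under tamoxifen in disease mice of both cohorts, and it fell in disease in the Dnm2 cohort. Bin1 cohort mice had 4.89, 6.93, 4.61 and 4.82 CPM in WT, 4.02, 4.18, 3.89 and 3.70 in disease, and 5.80, 7.92, 9.35 and 8.44 in disease treated mice. Each disease mouse was below each mouse of the other groups. The difference from WT did not pass the test (log2 fold change -0.42, edgeR adjusted p = 0.214), and the rise under tamoxifen did (1.98-fold, 95% interval 1.5 to 2.61, adjusted p = 0.0126). This rise was called in each of the 12 fits without a mouse (adjusted p at most 0.044). It was not called with the replicate number as a block, a number that the labels do not say pairs the mice.

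Levels of Dnm3 in the Dnm2 cohort were 8.95, 6.37, 8.85 and 6.61 CPM in WT and 5.16, 3.79, 4.39 and 3.56 CPM in disease mice, and it fell (log2 fold change -0.85, SE 0.16, edgeR adjusted p = 0.0016). Without the 6 mice with little Xist the fall was 0.81 and missed the threshold (adjusted p = 0.0552). Disease treated mice had 5.92, 5.90, 6.42 and 6.42 CPM, all above the disease mice and in part below the WT mice. The rise under tamoxifen (0.53, SE 0.16, edgeR adjusted p = 0.0459) was lost in 13 of the 16 fits without a mouse. WT treated mice, at 8.34, 8.01, 10.4 and 10.4 CPM, overlapped with WT mice (log2 fold change 0.27, adjusted p = 0.202), and on total counts they were called higher (0.54, adjusted p = 0.0163). Dnm3 and Dnm3os are transcribed from opposite strands of one locus, and the strand setting of the read counting is not given in the sources used here. If strand was not used, reads of the pair cannot be told apart, and its part in these values was not tested. Dnm3os was 13.4-fold higher in WT treated mice while Dnm3 was 1.2-fold higher, and in the Bin1 cohort Dnm3 rose under tamoxifen while Dnm3os had a log2 fold change of -0.11 (adjusted p = 0.934). The genes most like Dnm3 over the 28 mice were Fbp2, which encodes the muscle form of fructose bisphosphatase, Mllt10 and Cpeb1os1 (Pearson's r 0.888, 0.876 and 0.852).

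Among the 3 classical dynamins, on the per-kb scale, Dnm2 accounted for 88.3% of their reads in WT, 80.5% in disease and 82.3% in disease treated mice of the Bin1 cohort. Its share in the Dnm2 cohort was 83.8% in WT, 77.3% in disease, 66.7% in disease treated (55.5% to 81.2% in the single mice) and 59.1% in WT treated mice. Dnm2 was within 1.26 CPM per kb of the WT mean in every group, so that these shares followed the sum of Dnm1 and Dnm3, which went from 2.30 ± 0.441 CPM per kb in WT to 8.22 ± 1.56 in WT treated mice (SD, n = 4). Dnm1 made up nearly all of this sum.

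In disease against WT mice of the Bin1 cohort, 1 of 8 changed (Bin1), where 2.61% of all genes did (1.99% higher and 0.627% lower). For disease in the Dnm2 cohort it was 3 of 8 (Bin1, Amph and Dnm3), where 21.9% of all genes changed (12.1% higher and 9.81% lower). On total counts it was 5 of 8, of which 4 were higher (Bin1, Bin3, Dnm2 and Dnm1), instead of 1 of 3, where 34.2% of all genes were called (31.1% higher and 3.03% lower). WT treated against WT mice gave 1 of 8 (Dnm1), beside 27.7% of all genes (15.8% higher and 11.9% lower). Disease treated against disease mice gave Bin1 and Dnm3 in each cohort, where 3.13% of all genes changed in the Bin1 cohort and 8.27% in the Dnm2 cohort. Disease treated against WT mice gave Bin1 in the Bin1 cohort (0.849% of all genes) and Amph and Dnm1 in the Dnm2 cohort (28.9%, of which 15.8% higher and 13.1% lower), and disease treated against WT treated mice gave Bin1 (2.7%). Comparisons within a cohort share mice. Over the whole set, the median log2 fold change for disease against WT was 0.14 in the Bin1 cohort and 0.26 in the Dnm2 cohort, with 0.01 and 0.02 over all genes. Besides the deleted Bin1, no amphiphysin or dynamin passed edgeR's test in disease in the Bin1 cohort (DESeq2 also called Amph, lower, and Dnm1, higher), and the 95% intervals of Bin3, Dnm2 and Dnm1l there lay between -0.23 and 0.53.

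**Figure D4:**
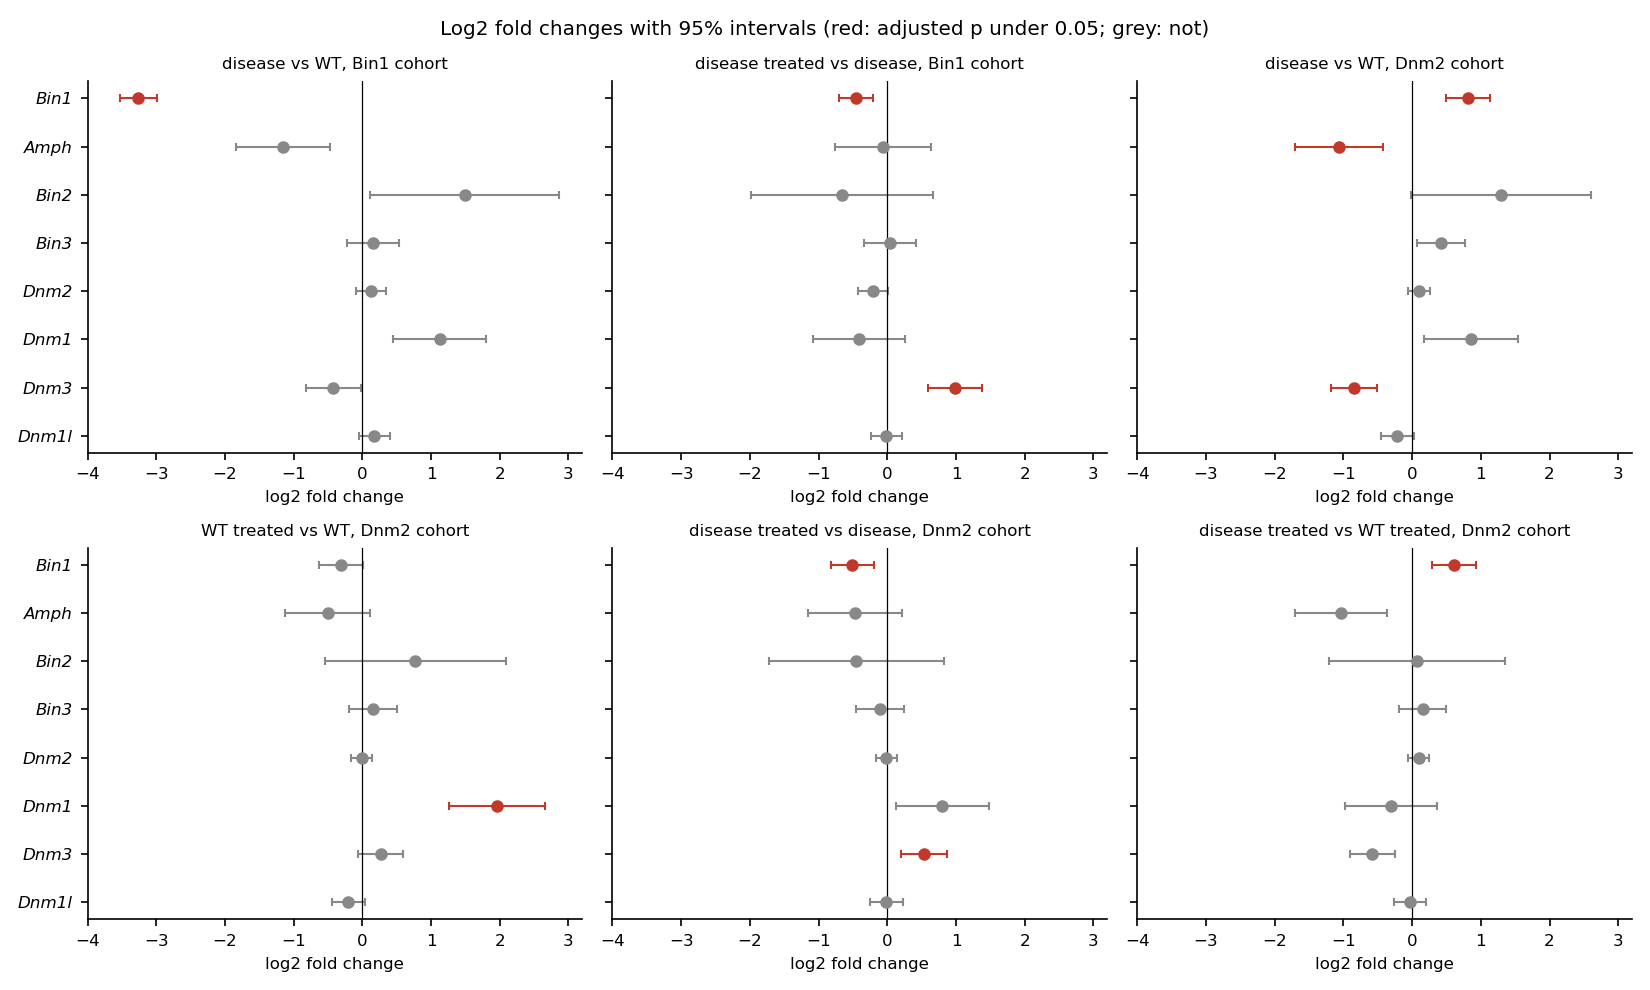
Log2 fold changes of the 8 genes with 95% intervals in 6 comparisons within a cohort (red where edgeR's adjusted p is under 0.05). Intervals are narrow for Dnm2, Dnm1l and Bin3 and widest for Bin2, and Dnm3 is red on the higher side under tamoxifen in disease mice of both cohorts.

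Differences between effects were tested directly. The effect of disease on Bin1 differed between the cohorts by 4.06 on the log2 scale (SE 0.19, edgeR adjusted p = 1.17e-13 in a fit of all 28 mice), with the gene deleted in one of them. For the 7 other genes this difference did not pass the test, and 0.312% of all genes did. The effect of tamoxifen in disease mice differed between cohorts for none of the 8 genes (edgeR; 0 with DESeq2), where 1.71% of all genes differed, and for 1 at an unadjusted p under 0.05, where 24% of all genes did. For Dnm1 the difference was 1.27 (95% interval 0.30 to 2.24, adjusted p = 0.107), and it passed without disease treated mouse 2 of the Bin1 cohort (1.70, adjusted p = 0.0134) or without disease treated mouse 4 of the Dnm2 cohort (1.53, adjusted p = 0.0243). Model and library protocol change together between the cohorts and cannot be told apart. Within the Dnm2 cohort, the effect of tamoxifen differed between disease and WT mice for none of the 8 genes (edgeR; 0 with DESeq2), where 0.259% of all genes differed, and for 1 at an unadjusted p under 0.05, where 13.5% did. The nearest was Dnm1, whose log2 fold change under tamoxifen was smaller in disease than in WT mice by 1.16 (95% interval of the difference -2.12 to -0.20, adjusted p = 0.289).

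Genes that work with amphiphysins and dynamins were counted in 4 lists, whose shares stand beside those over all genes given above (2.61% and 21.9% for disease in the Bin1 and Dnm2 cohorts, 27.7% for tamoxifen in WT). Of 39 endocytic partners, 36 were tested in the Bin1 cohort, and 2 rose in disease and none fell (5.56% of the list, median log2 fold change 0.00). These were Dab2, a clathrin adaptor (log2 fold change 1.06 with an SE of 0.25, edgeR adjusted p = 0.0456), and Clta, a clathrin light chain (0.47, SE 0.12, adjusted p = 0.0488), followed by the F-BAR gene Pacsin1 (1.88, adjusted p = 0.109). With Dnm2 S619L/+, 6 of 39 rose in disease and 3 fell (23.1%, median 0.02). Clta rose there as well (0.54, SE 0.10, edgeR adjusted p = 0.00179), as did Ap2s1, a subunit of the AP-2 adaptor (0.79, adjusted p = 0.0017), and the scaffold gene Itsn1 fell by 0.64 (adjusted p = 0.00179). In WT treated mice 8 of 39 rose and 3 fell (28.2%), with the endophilin genes Sh3gl2 and Sh3gl1 (log2 fold change 2.73 and 0.92, edgeR adjusted p = 0.00133 and 0.00189) and Snap91 (3.91, adjusted p = 0.0016) at the top. Sh3gl2 and Snap91 were low in all groups, at 0.656 to 1.27 and 0.942 to 1.91 CPM in these mice and at most 0.158 and 0.122 in WT.

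Of 19 tested genes of T-tubules and centronuclear myopathies, 2 rose in disease in the Bin1 cohort and none fell (10.5%). They were Cavin4 and Cav3, which coat and form caveolae in muscle (log2 fold change 0.72 and 0.63, edgeR adjusted p = 0.0332 and 0.0427). Both rose in the Dnm2 cohort too (0.80 and 1.01, edgeR adjusted p = 0.00372 and 0.000626), where 4 rose and 2 fell (31.6%). The desmin gene Des rose there (0.96, adjusted p = 0.00409) and had 0.60 in the Bin1 cohort (adjusted p = 0.0682). In disease treated mice of the Dnm2 cohort none of the 19 rose against WT and 6 fell (31.6%, where 28.9% of all genes changed). In WT treated mice none rose and 2 fell, the Z-disc gene Myot (by 0.52, edgeR adjusted p = 0.00424) and Stac3 of excitation-contraction coupling (by 0.50, adjusted p = 0.0159), and the phosphatase gene Mtmr14 had -0.35 (adjusted p = 0.0656). Of 10 skeletal muscle fiber markers, 6 fell in disease treated and 1 in WT treated mice against WT (median log2 fold change -0.52 and -0.43). None of these markers rose, and their part in the values of T-tubule genes was not tested. Among 12 genes of mitochondrial fission and fusion, the process in which Dnm1l acts, none changed in disease in the Bin1 cohort (Gdap1, Mfn1 and Mief1 were nearest, at -1.01, -0.27 and -0.15, edgeR adjusted p = 0.179, 0.254 and 0.476), and 2 rose and 3 fell in the Dnm2 cohort (41.7%). The fusion gene Mfn1 fell by 0.71 there (SE 0.11, edgeR adjusted p = 0.000403) and Gdap1, a gene of the outer mitochondrial membrane, fell by 1.70 (SE 0.30, adjusted p = 0.00121), while the actin nucleator gene Spire1 rose by 0.62 (adjusted p = 0.00344). Mfn1 also fell in WT treated mice (by 0.55, adjusted p = 0.00199), as did the protease gene Oma1 and the fusion gene Opa1 (by 0.47 and 0.46, adjusted p = 0.00213 and 0.0133), where 4 of the 12 fell and none rose.

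Of 12 other large GTPases related to dynamins, Ehd4, which acts on endosomes, rose in disease in both cohorts (log2 fold change 0.91 and 0.56, edgeR adjusted p = 0.011 and 0.032). It was the single call of this list in the Bin1 cohort (8.33%), while 1 rose and 2 fell in the Dnm2 cohort (25%), namely Srl, which encodes sarcalumenin of the sarcoplasmic reticulum, and the ER fusion gene Atl2 (by 0.49 and 0.54, edgeR adjusted p = 0.0142 and 0.0174). Under tamoxifen in WT mice, Ehd4 and Srl fell by 0.89 and 0.67 (adjusted p = 0.00207 and 0.00175) and Ehd3 rose by 2.39 on the log2 scale (SE 0.41, adjusted p = 0.000937), from 5.45 to 7.83 CPM in WT to 23.8 to 48.6 CPM. Medians of these lists were within 0.44 of 0 on the log2 scale in these 3 comparisons, and over all genes they were within 0.04.

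Likeness over the 28 mice was also described for the other genes, with cohorts centered on their means. The 3 genes most like Bin2 were Gpr35, Arhgap9 and Csf2ra (Pearson's r 0.883, 0.883 and 0.868), which are known from leukocytes. The nearest to Dnm2 was Gsn, the gene of the actin-severing protein gelsolin (0.800), and the nearest to Dnm1l was Cab39 (0.784). For Amph it was 4833413G10Rik (0.828), for Bin3 Id4 (0.750) and for Bin1, whose values are set by the deletion in one cohort, Cyb561a3 (0.688).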

How the data were processed

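RNA-seq of TA muscle from 28 mice was analysed. The authors deposited whole-number read counts per Ensembl gene, without normalization, in 1 table per cohort. Polyadenylated RNA went into stranded libraries, from 350 ng with 8 min of fragmentation in the Bin1 cohort and 300 ng with 2 min in the Dnm2 cohort. Per the submitters' processing notes, bcl2fastq 2.20.0.422, cutadapt 1.10, Bowtie 1.2.2, STAR 2.5.3, HTSeq 0.6.1p1 and genome build mm39 were used, with no roles stated. The strand setting and annotation release are not given in the sources used here. Whether Dnm3 and Dnm3os, on opposite strands of one locus, share reads depends on the strand setting. The table of the Bin1 cohort has 4 lines that are no gene (median 23.9% of counts), which were left out. Every column of counts belonged to a mouse of the labels.

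Each cohort was fitted alone with edgeR 4.0.16 (R 4.3.3): TMM factors, default filter on low counts, robust quasi-likelihood test, prior count 2 and Benjamini-Hochberg adjustment over all genes tested. Effects were compared between cohorts in a fit of all 28 mice (16036 genes). Intervals are the estimate ± t times its SE. Symbols and exon lengths came from GENCODE M21 (GRCm38), which names 52083 of the 55359 and 55416 identifiers. Patterns were compared on log2(CPM + 0.5). The genes followed and the lists were chosen with earlier results of these data known. The genes named are the 8 genes in every comparison, Dnm3os, the 3 genes most like each, of each of the 4 lists of related genes the 3 with the smallest p in the disease against WT and WT treated against WT comparisons, and of the cell type markers the defining ones. The labels do not say that same-numbered mice are paired. Over pairs of groups, 10 of 28 correlations of same-numbered mice were above 0.1 (-0.395 to 0.424), so the number was not used as a block. P-values measure the spread between mice of a group. No pair of mice was a repeat of one library (chi-square per gene at least 14.35 within groups). The alternatives were DESeq2 1.42.0, RLE factors, no filter, more than 10 reads in 90% of the mice, no mitochondrial genes, a fit of the compared groups alone, the replicate number as a block, and leaving out each mouse. Scaling by total counts, Xist as a covariate and leaving out mice with Xist under 1 CPM were chosen after the counts were seen.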

Additional observations from a re-analysis of the deposited data

Results flagged for a closer look

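In 3 of the 56 combinations of gene and group, 1 mouse lay far outside the range of the other 3 of its group, where chance gives about 1 in 20. Bin2 was at 2.05 CPM in disease mouse 4 of the Bin1 cohort (0.805 to 1.01 in the others) and at 2.89 CPM in disease mouse 4 of the Dnm2 cohort (0.288 to 0.676 in the others). These mice had the highest sums of leukocyte and macrophage markers of their groups, 269 and 396 CPM. Dnm3 was at 6.93 CPM in WT mouse 6 of the Bin1 cohort (4.61 to 4.89 in the others). The effect of disease on Bin1 differed between the cohorts by 4.06 on the log2 scale in a direct test (edgeR adjusted p = 1.17e-13), with the gene deleted in 1 of them.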

How the results depend on the processing

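For disease against WT mice of the Bin1 cohort the count of the 8 genes called was 1, and 3 with DESeq2 or with only the groups compared, 2 with more than 10 reads in 90% of the mice (a filter that Bin2 did not pass), and 1 to 3 without single mice. For disease treated against disease mice of the Bin1 cohort it was 2, and 1 with RLE factors or only the groups compared, with 1 to 2 without single mice. For disease treated against WT mice of this cohort it was 1, and 2 with DESeq2. In the Dnm2 cohort, disease against WT gave 3, with 5 on total counts, 1 without the mice with Xist under 1 CPM and 3 to 5 without single mice. WT treated against WT gave 1, and 3 on total counts. Disease treated against disease gave 2, with 1 on total counts or with more than 10 reads in 90% of the mice, 0 without a filter, with only the groups compared, with the Xist covariate or without mice with little Xist, and 0 to 2 without single mice. Disease treated against WT gave 2, with 5 on total counts and 1 without mice with little Xist. Disease treated against WT treated gave 1, with 3 by DESeq2, 0 with only the groups compared, 2 without mice with little Xist and 0 to 1 without single mice. The difference of the tamoxifen effect between cohorts gave 0, and 0 to 1 without single mice. The counts for the interaction (0) and for the disease effect between cohorts (1) did not move in any alternative run. Leaving out a mouse did not move those of WT treated against WT or of disease treated against WT in either cohort. The value of Dnm2 for WT treated against WT mice changed sign on total counts (log2 fold change 0.27 instead of -0.01, adjusted p = 0.0311). The median over all genes then moved by 0.274, a shift that the scaling itself makes. Apart from this, the cause of these moves was not tested.

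With the replicate number as a block, the count was 0 for disease treated against disease in either cohort and 0 for disease treated against WT treated mice, and 5 single calls were lost. The labels do not say whether these numbers pair the mice. In the 8 comparisons that a replicate block could be fitted to, it changed no other call among the 8 genes and Dnm3os. The comparisons with WT in the Bin1 cohort and the disease effect between cohorts had no such fit, since the WT mice there carry other numbers. Depth limits Amph and Bin2 most, with 10 to 155 and 3 to 77 reads per mouse. Over all genes the counts moved more: for disease against WT in the Bin1 cohort, 388 became 1191 with DESeq2, 1458 with only the groups compared and 18 to 759 without single mice. In the Dnm2 cohort, disease treated against disease went from 1277 to 30 with only the groups compared and 79 without mice with little Xist, and disease against WT from 3382 to 5275 on total counts and 1124 without mice with little Xist. The difference of the tamoxifen effect between cohorts went from 274 to 1328 with DESeq2 and to 2 with only the groups compared.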
